A study of Mus musculus with 112 samples.

Results

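The proteasome subunit genes were followed in the gastrocnemius, a calf muscle, of mice with 1 limb in a cast. The members are all gene symbols made of Psma, Psmb, Psmc, Psmd or Psme and a number, with the immunoproteasome genes Psmb8, Psmb9 and Psmb10 left out. The rule found 40 of the 32544 symbols in the count tables: 8 alpha subunits of the core (Psma), 8 beta subunits (Psmb), 6 ATPases (Psmc), 14 lid, base and base assembly genes (Psmd) and 4 activators (Psme). Of these, 38 had enough reads to be tested, among 11886 genes in all. The other two are known from single organs: Psma8, the testis alpha subunit, had 26 reads in all, and Psmb11, the thymus beta subunit, had 70.

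The animals were Diversity Outbred mice aged 16 weeks, an outbred stock in which each animal carries its own mix of founder genomes. A cast held 1 limb for 3 weeks, and the gastrocnemius of both limbs was sequenced as stranded total RNA after depletion of ribosomal RNA. The 112 libraries fall into 4 groups of 28: female control, female immobilized, male control and male immobilized limbs. The right limb was immobilized in every mouse and the left limb was its control, so side and treatment cannot be told apart, and every control limb came from an animal that carried a cast.

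Proteasomes are large proteases that degrade proteins tagged with ubiquitin. A barrel of alpha and beta rings, the 20S core, holds the cutting sites inside the beta ring, and a 19S cap recognises, unfolds and threads in the substrate, driven by a ring of ATPases. In muscle the ubiquitin proteasome system is best known for breaking down contractile proteins during wasting, and the transcription factor Nrf1, encoded by Nfe2l1, is known to raise the genes of all subunits together when proteasome activity falls short.

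The libraries held 1716485 to 9995936 counts, with a median of 4395118. Levels below are CPM (read counts scaled to a fixed library total) after TMM scaling, and changes are log2 fold changes of immobilized over control limb from edgeR with a term for each animal, as estimate ± SE. A gene was called at a Benjamini-Hochberg adjusted p of at most 0.05 over all 11886 genes. The share of counts from the mitochondrial genome had medians of 16.3% in female control, 11.9% in female immobilized, 17.7% in male control and 13.8% in male immobilized limbs. In 10 libraries Acta1, the actin of the muscle fibre, lay below 50% of its median over all libraries: 4 female immobilized, 3 female control, 1 male immobilized and 2 male control. In 1 of those male control libraries the 8 fibre markers summed to 7.39 CPM, against at least 83239 CPM in each of the 102 other libraries, which goes against its label as muscle. The summed markers of T, B and NK cells were 13.1 to 1472 CPM in the 10 libraries and 0 to 153 CPM in the others. Results are given with these libraries, and without their 10 mice where that changed a call.

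Averaged over the sexes, 11 of the 38 tested members were slightly higher in the immobilized limb and 1 was lower. Over all genes, 9.58% rose and 10.4% fell in this comparison, 19.9% together. With an offset for transcript length and GC content, described below and added after seeing the data, 3 rises (Psmb1, Psmb4 and Psmd13) and the decrease were kept, 4 of the 12 calls. In that fit 7.26% of all genes were higher and 10.7% lower, so 3 rises of 38 members were near the share of all genes. Without the offset, 5 of the 7 tested beta subunits rose, as did 3 of the 6 ATPases, 2 of the 14 lid and base genes and 1 of the 7 alpha subunits. The 1 decrease was in the alpha subunit Psma1, and 0 of the 4 activators passed the test. The rises were small, from 0.13 for Psma7 to 0.25 for Psmd4, and 30 of the 38 members had a positive estimate. The median over members was 0.06, against 0.01 over all genes. In bulk tissue, fewer cells of a type and less RNA per cell cannot be told apart.

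**Figure D1:**
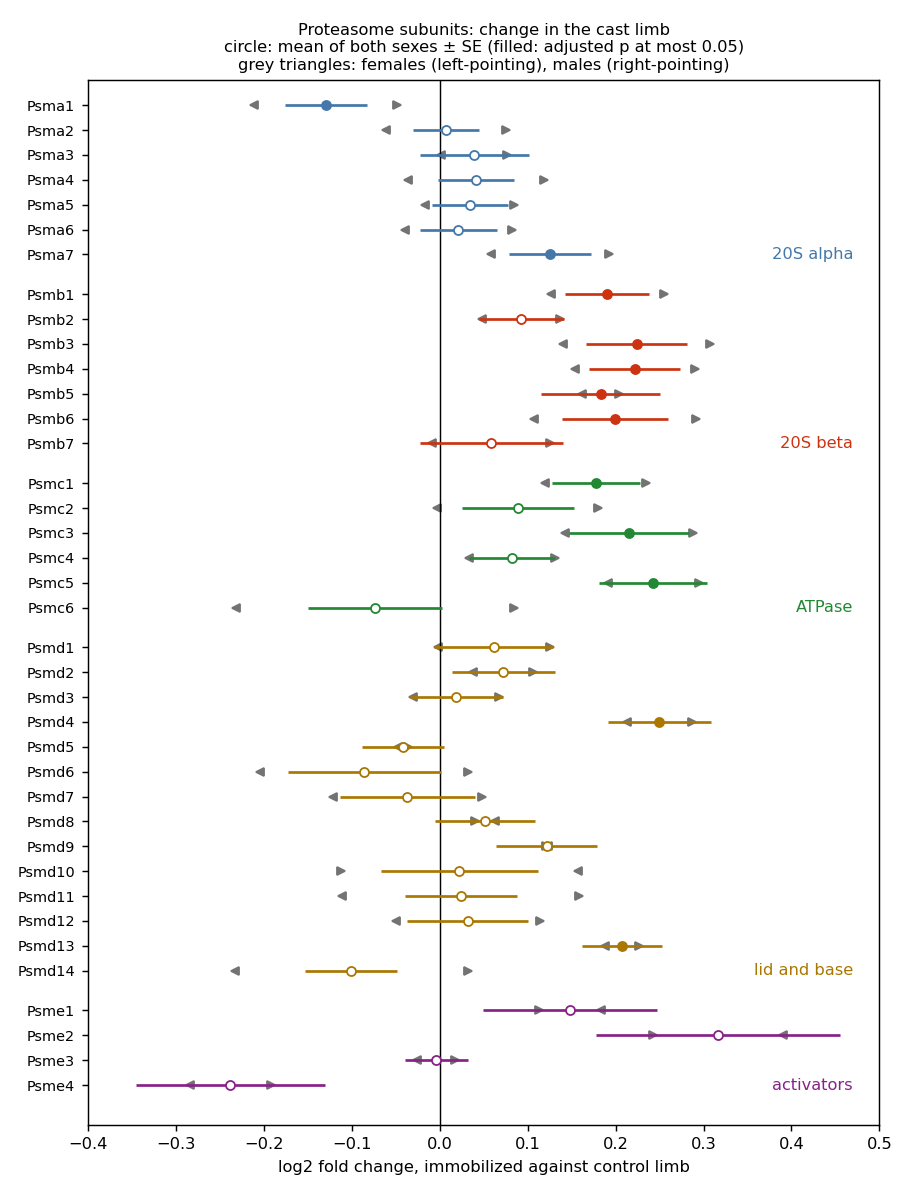
Log2 fold change of immobilized over control limb for the 38 tested proteasome members, by role. Circles are the mean of both sexes with its SE, filled at an adjusted p of at most 0.05, and grey triangles are the estimates in females (pointing left) and males (pointing right). The 11 filled circles on the right lie between 0.13 and 0.25, and Psma1 is the filled circle on the left at -0.13.

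Promoter sequence was taken for the members that moved, because the factors known to act on proteasome genes bind short motifs there. Entries from RefSeq (build GRCm38.p6) matched 33 of the 40 members, with no entry for Psma8, Psmb1, Psmb2, Psmb7, Psmc3, Psmd3 and Psmd7. The 250 bases before the start of the gene were searched on both strands for TGACNNNGC, the core of the antioxidant response element at which Nrf1 and Nrf2 bind with small Maf proteins, and for CCAAT, the box of the factor NF-Y. On the other strand these read as their reverse complements, for CCAAT as ATTGG. A stretch that matched both motifs was counted for both. TGACNNNGC was found in 5 of the 33 members and in 10.2% of 32851 promoters, and CCAAT in 13 members and in 33.8% of promoters. A member was counted if any of its entries matched, while the background counts promoters, so the shares are not quite alike. Psma6, Psmc2 and Psme2 had 2 entries each, and for Psma6 and Psmc2 not every entry held CCAAT. Of the 9 risen members with an entry, 2 held TGACNNNGC (Psmb5 and Psmb6) and 4 held CCAAT (Psma7, Psmb3, Psmc1 and Psmd4). Of the 22 tested members with an entry that were not called, 3 and 7 held them. A match is a description of the letters and not a binding site. Shown, from 5′ to 3′ on the strand of the gene with the motif in capitals, are the risen members with TGACNNNGC, 2 risen members with CCAAT, and Psma1, the member that fell.
Psmb6 (chr11:70525107-70525356, plus strand): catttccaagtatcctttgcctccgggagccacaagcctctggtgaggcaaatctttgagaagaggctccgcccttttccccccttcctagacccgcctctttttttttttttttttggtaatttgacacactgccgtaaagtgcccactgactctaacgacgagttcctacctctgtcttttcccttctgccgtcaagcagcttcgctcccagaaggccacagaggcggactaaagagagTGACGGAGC
Psmb5 (chr14:54617996-54618245, minus strand): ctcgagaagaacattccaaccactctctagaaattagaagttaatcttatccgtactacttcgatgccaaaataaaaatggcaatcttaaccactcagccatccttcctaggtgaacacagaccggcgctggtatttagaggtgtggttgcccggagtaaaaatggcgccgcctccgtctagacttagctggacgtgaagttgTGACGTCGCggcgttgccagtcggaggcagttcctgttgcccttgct
Psmd4 (chr3:95042615-95042864, minus strand): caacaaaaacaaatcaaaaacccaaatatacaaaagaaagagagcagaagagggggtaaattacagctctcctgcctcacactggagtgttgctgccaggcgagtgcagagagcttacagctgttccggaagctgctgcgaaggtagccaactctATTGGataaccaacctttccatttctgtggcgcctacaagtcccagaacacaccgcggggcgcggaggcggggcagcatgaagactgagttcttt
Psmb3 (chr11:97703184-97703433, plus strand): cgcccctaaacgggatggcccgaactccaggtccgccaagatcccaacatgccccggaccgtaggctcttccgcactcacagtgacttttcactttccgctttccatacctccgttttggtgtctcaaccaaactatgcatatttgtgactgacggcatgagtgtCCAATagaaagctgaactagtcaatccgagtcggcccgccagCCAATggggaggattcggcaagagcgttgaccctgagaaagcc
Psma1 (chr7:114276117-114276366, minus strand): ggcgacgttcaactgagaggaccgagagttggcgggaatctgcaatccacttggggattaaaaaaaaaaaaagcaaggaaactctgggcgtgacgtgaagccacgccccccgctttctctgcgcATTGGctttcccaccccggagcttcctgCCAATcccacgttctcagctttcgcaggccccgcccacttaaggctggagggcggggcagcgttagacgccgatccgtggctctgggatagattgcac
The Psmb6 match ends at the last base before the start of the gene. Psma1, with the opposite direction of change, held 2 CCAAT matches, as many as the risen Psmb3.

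The beta subunits carry the active sites of the core and the ring around them. Psmb4, a beta subunit without an active site, ranged from 94.8 to 212 CPM in female control limbs (median 118) and from 83.9 to 228 CPM in female immobilized limbs (median 139). In males it ranged from 64.5 to 158 CPM (median 118) in control limbs and from 110 to 211 CPM (median 140) in immobilized limbs. All groups overlapped, and the immobilized limb was the higher one in 18 of 28 females and 23 of 28 males. The change was 0.22 ± 0.05 averaged over the sexes (edgeR, adjusted p = 0.00212), 0.29 ± 0.07 in males (adjusted p = 0.0243) and 0.15 ± 0.07 in females (adjusted p = 0.185).

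Psmb3, another subunit without an active site, ranged from 44.9 to 171 CPM (median 69.3) in female control and 47.1 to 133 CPM (median 83.6) in female immobilized limbs. In males its control limbs ranged from 24.9 to 94.7 CPM (median 69.8) and its immobilized limbs from 42.5 to 148 CPM (median 90.1). The immobilized limb was higher in 42 of 56 mice, by 0.22 ± 0.06 averaged (adjusted p = 0.00469) and 0.31 ± 0.08 in males (adjusted p = 0.0312). The estimate in females was 0.14 ± 0.08 (adjusted p = 0.281), and the groups overlapped.

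Psmb1, the third of the inactive beta subunits that rose, ranged from 83.8 to 213 CPM (median 127) in female control and 88.4 to 219 CPM (median 142) in female immobilized limbs. Male control limbs held 69.2 to 169 CPM (median 131) and male immobilized limbs 119 to 276 CPM (median 151). Psmb1 was higher in 25 of 28 males and 19 of 28 females, the groups overlapping. It rose by 0.19 ± 0.05 averaged (adjusted p = 0.00392) and 0.25 ± 0.07 in males (adjusted p = 0.0329), with 0.13 ± 0.07 in females (adjusted p = 0.239).

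Psmb6 encodes the catalytic subunit with caspase-like activity. Its levels were 79.3 to 197 CPM (median 128) in female control, 62.8 to 224 CPM (median 140) in female immobilized, 64.8 to 173 CPM (median 125) in male control and 115 to 216 CPM (median 149) in male immobilized limbs. In 41 of 56 mice the immobilized limb was higher, and Psmb6 rose by 0.20 ± 0.06 averaged (adjusted p = 0.0152), with overlap between the groups. The male estimate of 0.29 ± 0.09 just missed the threshold (adjusted p = 0.0504).

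Psmb5, the catalytic subunit with chymotrypsin-like activity, ranged from 31.4 to 144 CPM (median 60.1) in female control and 30.7 to 110 CPM (median 69.5) in female immobilized limbs. In males it ranged from 24.3 to 121 CPM (median 58.2) in control and 46.3 to 126 CPM (median 67.9) in immobilized limbs. Psmb5 was higher in 20 of 28 mice of either sex and rose by 0.18 ± 0.07 averaged (adjusted p = 0.0477), while neither sex passed alone. Psmb7, the catalytic subunit with trypsin-like activity, had an estimate of 0.06 ± 0.08 averaged (adjusted p = 0.632), and Psmb2 had 0.09 ± 0.05 (adjusted p = 0.163). Of the 3 standard catalytic subunits 2 rose and Psmb7 was not called, and with the length and GC offset 0 of the 3 were called by edgeR, Psmb5 having 0.03 (adjusted p = 0.714) and Psmb6 0.05 (adjusted p = 0.608). Whether Psmb7 differed from those 2 was not tested.

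**Figure D2:**
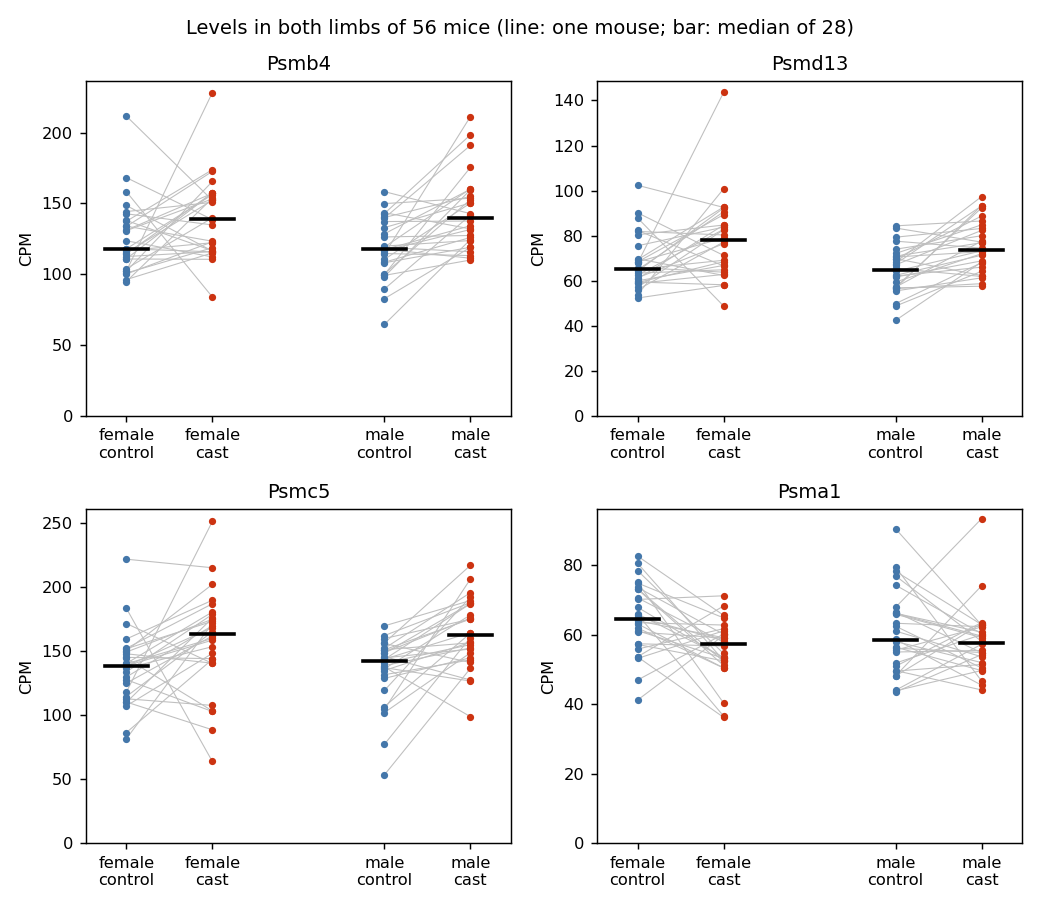
CPM of Psmb4, Psmd13, Psmc5 and Psma1 in both limbs of the 56 mice. Each grey line joins the control limb (blue) and the immobilized limb (red) of 1 mouse, and black bars are medians of 28. For Psmb4 the female median lies at 118 CPM in control and 139 CPM in immobilized limbs, the male at 118 and 140 CPM, and the groups overlap for all 4 genes.

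The alpha subunits form the outer rings and the gate of the core. Psma7 ranged from 66.4 to 140 CPM (median 93.6) in female control and 80.6 to 174 CPM (median 97.5) in female immobilized limbs, and from 68.7 to 138 CPM (median 96.8) in male control and 85.9 to 158 CPM (median 108) in male immobilized limbs. The groups overlapped almost fully in females. Psma7 rose by 0.13 ± 0.05 averaged (adjusted p = 0.0472), with 0.06 ± 0.07 in females (adjusted p = 0.602) and 0.19 ± 0.07 in males (adjusted p = 0.1).

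Psma1 went the other way. It ranged from 41.3 to 82.7 CPM (median 64.6) in female control and 36.3 to 71.3 CPM (median 57.4) in female immobilized limbs, and from 43.6 to 90.6 CPM (median 58.4) in male control and 44.2 to 93.5 CPM (median 57.7) in male immobilized limbs. The immobilized limb was the lower one in 22 of 28 females and 17 of 28 males. Psma1 fell by 0.13 ± 0.05 averaged (adjusted p = 0.0413), and its female estimate of -0.21 ± 0.07 just missed the threshold (adjusted p = 0.0503). Within mice numbered 21 to 40 the averaged estimate was 0.04, and in mice 1 to 20 it was -0.26 (adjusted p = 0.0214). The call was lost with median-of-ratios size factors (adjusted p = 0.0565), without the low-count filter and without males 15 and 16. Psma2 to Psma6 were not called, with averaged estimates from 0.01 for Psma2 to 0.04 for Psma4.

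The ATPases form the ring of the base that unfolds the substrate. Psmc5 ranged from 81.6 to 222 CPM (median 138) in female control and 63.9 to 251 CPM (median 163) in female immobilized limbs, and from 53.4 to 170 CPM (median 142) in male control and 98.9 to 217 CPM (median 162) in male immobilized limbs. It was higher in 43 of 56 mice, the groups overlapping, and rose by 0.24 ± 0.06 averaged (adjusted p = 0.00408). Estimates were 0.19 ± 0.09 in females and 0.29 ± 0.09 in males, neither called (adjusted p = 0.165 and 0.0518).

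Psmc3 ranged from 83.1 to 260 CPM (median 184) in female control and 85.7 to 311 CPM (median 211) in female immobilized limbs. In males it ranged from 49.4 to 232 CPM (median 188) in control and 147 to 316 CPM (median 211) in immobilized limbs. Psmc3 was higher in 39 of 56 mice, with overlap, and rose by 0.22 ± 0.07 averaged (adjusted p = 0.0203). Psmc1 ranged from 77.4 to 154 CPM (median 124) in female control, 70.2 to 176 CPM (median 136) in female immobilized, 60.7 to 156 CPM (median 133) in male control and 104 to 199 CPM (median 144) in male immobilized limbs. It was higher in 43 of 56 mice, also with overlap, and rose by 0.18 ± 0.05 (adjusted p = 0.00933). Psmc2 and Psmc4 were not called at 0.09 ± 0.06 and 0.08 ± 0.05. Psmc6, the ATPase with the lowest GC content (37%), had -0.23 ± 0.11 in females and 0.08 ± 0.11 in males, neither called.

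Among the Psmd genes, 2 rose. Psmd4, a receptor for ubiquitin chains, ranged from 85.3 to 199 CPM (median 132) in female control and 71.6 to 277 CPM (median 155) in female immobilized limbs, and from 71.5 to 190 CPM (median 149) in male control and 104 to 248 CPM (median 173) in male immobilized limbs. It was higher in 19 of 28 females and 23 of 28 males, with overlap. The rise was 0.25 ± 0.06 averaged (adjusted p = 0.00205) and 0.29 ± 0.08 in males (adjusted p = 0.0459), with 0.21 ± 0.08 in females (adjusted p = 0.106).

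Psmd13, a structural subunit of the lid, had the smallest averaged p of the members. It ranged from 52.3 to 102 CPM (median 64.9) in female control and 48.7 to 144 CPM (median 78) in female immobilized limbs, and from 42.3 to 84.3 CPM (median 64.8) in male control and 57.5 to 97.3 CPM (median 73.8) in male immobilized limbs. It was higher in 44 of 56 mice, again with overlap, and rose by 0.21 ± 0.05 averaged (adjusted p = 0.00123) and 0.23 ± 0.06 in males (adjusted p = 0.0445). The female estimate was 0.19 ± 0.06 (adjusted p = 0.0713).

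The other 12 Psmd genes were not called in any of the 3 comparisons. Psmd1 and Psmd2, the scaffolds of the base, had averaged estimates of 0.06 ± 0.07 and 0.07 ± 0.06. Psmd14, the deubiquitinase that removes the ubiquitin chain, had -0.23 ± 0.07 in females (adjusted p = 0.0546) and 0.03 ± 0.07 in males. The lid subunits Psmd6 and Psmd11 had -0.20 ± 0.12 and -0.11 ± 0.09 in females and 0.03 ± 0.12 and 0.16 ± 0.09 in males. Psmd5, Psmd9 and Psmd10 encode chaperones that help assemble the base and are not part of the finished particle, and their averaged estimates were -0.04 ± 0.05, 0.12 ± 0.06 and 0.02 ± 0.09.

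The activators bind the ends of the core in place of the cap. Psme1 and Psme2, whose products form the interferon-induced activator PA28, had averaged estimates of 0.15 ± 0.10 and 0.32 ± 0.14 (adjusted p = 0.287 and 0.0963). Psme2 ranged from 10.9 to 157 CPM (median 23.4) in female control, 15.3 to 158 CPM (median 28.5) in female immobilized, 13.9 to 65.7 CPM (median 20.6) in male control and 16.1 to 84.5 CPM (median 24.4) in male immobilized limbs. A few libraries far above the rest set its upper range. Psme4, whose product PA200 is a large single-chain activator, ranged from 42 to 278 CPM (median 199) in female control, 36.4 to 272 CPM (median 173) in female immobilized, 46.2 to 333 CPM (median 234) in male control and 53.6 to 304 CPM (median 199) in male immobilized limbs. Its estimate was -0.24 ± 0.11 (adjusted p = 0.106), and without the 10 mice it was called lower at -0.24 (adjusted p = 0.000736). Psme3, the nuclear activator, had 0.00 ± 0.04.

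By sex, the counts were 5 higher and 0 lower of 38 in males, against 1.09% of all genes called higher, 1.12% called lower and 2.21% together. The 5 were Psmb1, Psmb3, Psmb4, Psmd4 and Psmd13. At an unadjusted p under 0.05, 13 members were higher and 0 lower in males, against 8.52% and 8.49% of all genes, and 34 of 38 estimates were positive, against 50.7%, with a median of 0.12. All 5 male calls were lost without the low-count filter, while DESeq2 called 10 and limma voom 8, all higher, against 2.73% and 1.99% of all genes. In females edgeR called 0 of 38, against 4.57% of all genes (2.1% higher and 2.47% lower). At an unadjusted p under 0.05, 4 were higher and 3 lower there, against 12.0% and 12.4% of all genes. DESeq2 called 2 higher and 2 lower, against 5.02% and 4.61%, and limma voom called 2, both lower, against 3.53%. The female estimates ran from -0.28 for Psme4 to 0.39 for Psme2, with a median of 0.02 and 20 of 38 positive, against 51.0% of all genes.

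The difference between the sexes was tested itself, as the male minus the female change. edgeR called 0 of 38 members and 0 of 11886 genes (0%), and DESeq2 and limma voom also called 0 members. At an unadjusted p under 0.05 there were 3 members, all with the higher change in males: Psmd14 (0.26, 95% interval 0.06 to 0.47), Psmd11 (0.27, 0.02 to 0.52) and Psmc6 (0.32, 0.02 to 0.62). Over all genes 194 passed that unadjusted threshold. The estimate was positive in 33 of 38 members, against 51.7% of all genes, including all 7 alpha, all 7 beta and all 6 ATPase genes, with a median of 0.12. For the beta subunit Psmb4 it was 0.14 (-0.07 to 0.34), and for Psmd4 0.07 (-0.15 to 0.30). These intervals include 0 as well as differences as large as the change itself. Without the 10 mice with a low Acta1 library, the male change was not above the female one in all alpha, beta and ATPase genes. Among others, females had the larger estimate for Psmc5 (0.28, males 0.23), Psmb5 (0.19, males 0.14) and Psma3 (0.044, males 0.039). Males kept the larger one for others, such as Psmb1 (0.23, females 0.14) and Psmc1 (0.19, females 0.17).

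Without the 10 mice with a low Acta1 library, 46 mice remained and more members passed. Averaged over the sexes, 12 rose and 2 fell, against 16.1% and 16.2% of all genes, and all 12 members called before were called again. The additions were Psme2, higher at 0.34 (adjusted p = 0.00629), and Psme4, lower. In females 5 rose (Psmc1, Psmc3, Psmc5, Psmd4 and Psmd13) and 3 fell (Psma1, Psmc6 and Psme4), against 7.68% and 9.2% of all genes. In males 9 rose and Psme4 fell, against 4.42% and 4.55%. The male additions were Psmb6 (0.24, adjusted p = 0.00907), Psmc1 (0.19, 0.0155), Psmc3 (0.23, 0.00948) and Psmc5 (0.23, 0.0146).

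Members also followed the composition of their transcripts, as genes in general did here. Lengths and GC contents came from the longest protein-coding transcript in GENCODE M21, with a value for 38 of 38 members and 11243 of 11886 genes. Over all genes the averaged change had a correlation across genes of -0.20 with log2 length and 0.24 with GC content, and over the 38 members -0.48 and 0.66. Of all genes with transcripts of at most 1000 bases 23.9% were called higher, of those over 5000 bases 4.87%. By length, members rose in 3 of 5 cases up to 1000 bases (against 23.9% of all genes), 3 of 12 from 1000 to 1500 (19.5%), 5 of 10 from 1500 to 2000 (14.1%) and 0 of 8 from 2000 to 3000 (10.5%). None of the 3 longer ones rose, against 6.47% of all genes from 3000 to 5000 bases and 4.87% above. By GC content, members rose in 0 of 8 cases up to 45%, where 1.60% (up to 40%) and 4.46% (40 to 45%) of all genes did. They rose in 2 of 13 from 45 to 50% (against 7.88%), 6 of 13 from 50 to 55% (11.8%) and 3 of 4 from 55 to 60% (14.2%). With an offset for each library that removes its trend on length and GC, an alternative added after seeing the data, 4 of the 12 calls were kept: Psmb1, Psmb4 and Psmd13 higher and Psma1 lower. Their estimates were then 0.14, 0.12, 0.13 and -0.16 (adjusted p = 0.0137, 0.0263, 0.0155 and 0.00552). In that fit 7.26% of all genes were higher and 10.7% lower, so 3 rises of 38 members were near the share of all genes. In females alone the offset left Psma1 called lower (-0.21, adjusted p = 0.037), against 1.13% of all genes higher and 2.14% lower. In males alone it left Psmb1 called higher (0.21, adjusted p = 0.0497), against 0.867% and 1.23%. The other 8 lost their call, with estimates from 0.03 for Psma7 and Psmb5 to 0.15 for Psmc5 and Psmd4. The part of transcript composition in these rises was not tested beyond this fit.

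**Figure D3:**
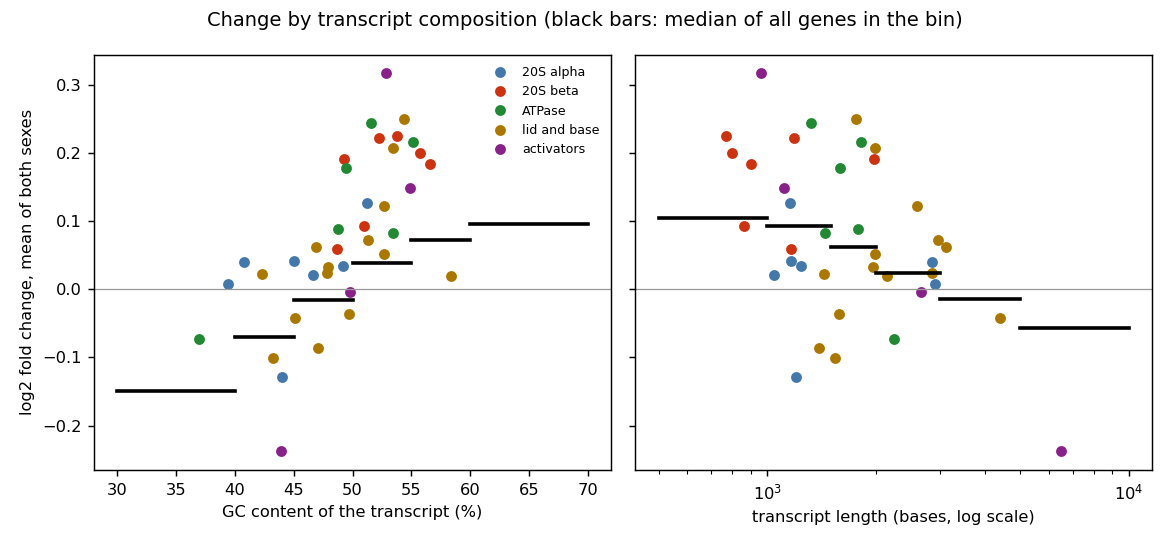
Averaged log2 fold change of the 38 members against the GC content (left) and the length (right, log axis) of their transcripts, coloured by role. Black bars are medians of all genes in each bin, the end bins drawn to the edge of the plot. The bars rise from -0.15 below 40% GC to 0.10 above 60%, and the members rise with GC too (r = 0.66, n = 38).

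Library composition moved with the limb as well. The averaged change was called higher in 8 of 8 macrophage markers, 4 of 5 Schwann cell markers and 3 of 5 fibroblast markers, and in 0 of 8 markers of the muscle fibre. It was called lower in 2 of 5 endothelial and 1 of 7 adipocyte markers. The macrophage markers summed to a median of 81.4 CPM (38.6 to 416) in female control, 151 CPM (15.3 to 741) in female immobilized, 71.2 CPM (16.1 to 221) in male control and 92.9 CPM (25.1 to 1385) in male immobilized limbs. No macrophage marker was at 0 in all libraries. Their part in the proteasome changes was not tested. The animal numbers form blocks with few mice, and within them calls were rare: 1 in mice 1 to 20 (Psma1), 0 in mice 21 to 40 and 0 in mice 41 to 59. The lowest averaged adjusted p of a member from edgeR was 0.535 in mice 21 to 40 and 0.313 in mice 41 to 59. These counts are given without the share of all genes called in the same fits, so they show nothing particular to the members. The 11 risen members had positive estimates in each block. They were chosen by their call in the fit that pools these blocks, so the shared sign is partly set by that choice. The 3 blocks gave 0.27, 0.24 and 0.27 for Psmd4 and 0.28, 0.23 and 0.25 for Psmc5. They lay farther apart for Psmb5 (0.08, 0.19 and 0.29) and Psmc3 (0.25, 0.15 and 0.28).

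The size of the change varied widely from mouse to mouse, and most subunits varied together. For each of the 56 mice the difference in log2 CPM between its limbs was taken, and correlations across mice are given as a description, since members share libraries, depth and scaling. The median correlation between pairs of members was 0.49, against 0.00 between all genes. In the 46 mice without a low Acta1 library it was 0.33 between members, and the value between all genes was not taken there. Over all 56 mice it was 0.85 among the ATPases, 0.71 among the beta subunits, 0.56 among the alpha subunits and 0.42 among the Psmd genes. The mean change of the ATPases followed that of the Psmd genes with r = 0.95. The mean over all members ran from -0.85 to 0.72 in females (median 0.05) and from -0.19 to 0.74 in males (median 0.07). It was positive in 17 of 28 females and 21 of 28 males. The lowest and highest female values were from mice 2 and 48 and the highest male value from mouse 52, each with a low Acta1 library. In mouse 52 this was the control library that went against its label as muscle. Among mice without such a library the mean ran from -0.21 (mouse 3) to 0.49 (mouse 8) in females. In males without one it ran from -0.19 to 0.52 (mouse 32). The mean of the beta subunits was positive in 41 of 56 mice, and that of the Psmd genes in 29 of 56.

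A few members stood outside this shared movement. Against the mean of the other members, Psmb6 had the highest correlation (0.93), and the base chaperones had 0.12 (Psmd5), 0.00 (Psmd9) and -0.14 (Psmd10). Psme3 had 0.02, and Psme1 and Psme2 had -0.44 and -0.47. The base chaperones had the lowest median counts of the tested members, at 78, 64 and 33 reads a library. The part of low counts in their correlations was not tested. The mean over members had r = 0.60 with the change in Acta1 and -0.56 with that in Psmb8, an interferon-induced catalytic subunit of the immunoproteasome. Psme2 followed Psmb8 with r = 0.89. The correlations in this paragraph are over all 56 mice, the 10 with a low Acta1 library included, and were not taken without these. In mouse 52 the change in Acta1 was 12.98 on the log2 scale, from a control limb with 3.45 CPM.

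Levels in the 10 low Acta1 libraries differed by member. The 38 members summed to 2059 to 3665 CPM in these libraries (median 2794) and to 3207 to 5647 CPM in the 102 others (median 4231), of which 8 lay within the range of the 10. Over all libraries the group medians were 4077 in female control, 4192 in female immobilized, 4226 in male control and 4278 CPM in male immobilized limbs. Median Psmb8 was 90.4 CPM in the 10 and 4.75 CPM in the 102 others, Psme2 89.3 and 22.7 CPM, and Psme1 112 and 41.7 CPM. Psme4 had a median of 55.8 CPM (36.4 to 117) in the 10 and 206 CPM (108 to 333) in the others, and Psmb7 97.5 CPM (73.7 to 123) and 223 CPM (151 to 387). The 2 sets of libraries did not overlap for Psmb7, nor for Psma3, Psmc6, Psmd6, Psmd7 and Psmd12, and for Psme4 they overlapped narrowly. How many of all genes separated these libraries in the same way was not counted, so this cannot be read as a trait of the members. Psmd13, Psmb2 and Psmd5 were close to level, at 64.5 against 68.6, 64.2 against 68.4 and 17.4 against 18.4 CPM.

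**Figure D4:**
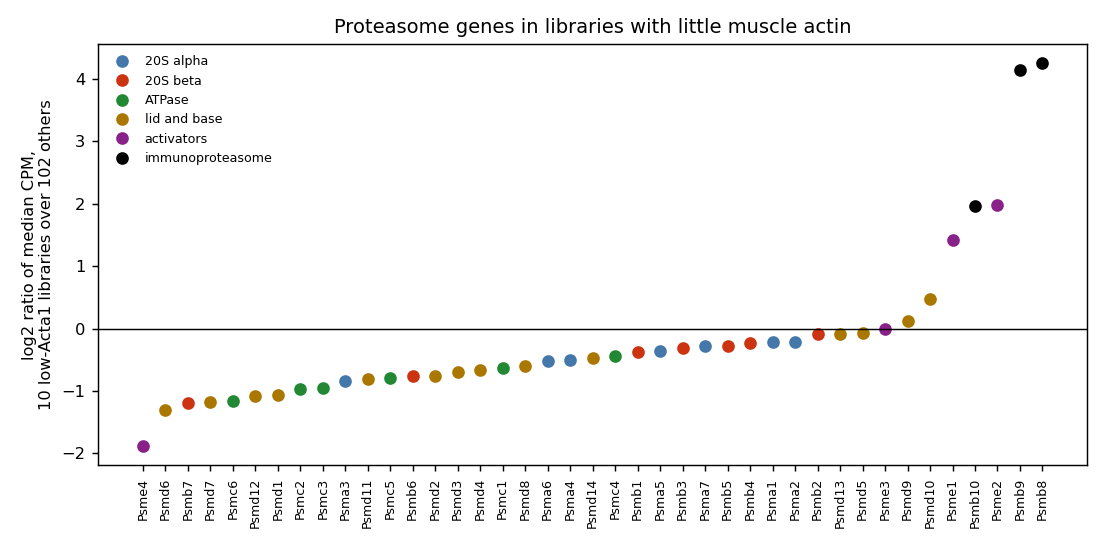
Log2 ratio of the median CPM in the 10 libraries with low Acta1 to the median in the 102 others, for the 38 members, coloured by role, and for Psmb8, Psmb9 and Psmb10 (black). Most members lie below 0, with Psme4 lowest, while Psmd9, Psmd10, Psme1, Psme2 and the immunoproteasome genes lie above it.

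Per length of transcript, the subunits were not at equal levels in the control limbs. Median CPM per kilobase ran from 24.5 (Psma2) to 188 (Psmb7) over the 14 tested core genes, although each is present in equal number in the particle. It ran from 42.6 (Psmc6) to 106 (Psmc5) over the ATPases and from 22 (Psme2) to 37.5 (Psme1) over the activators. Among the Psmd genes the 3 base chaperones were lowest, at 4.17 (Psmd5), 5.44 (Psmd9) and 5.71 (Psmd10), and Psmd7 was highest at 98.6. Lengths refer to the longest coding transcript of each gene, so these levels depend on which transcript the muscle uses.

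In the control limbs 1 of 38 members differed between the sexes, against 1.8% of all genes, with 1% higher and 0.799% lower in males. This was Psmd8, a subunit of the lid, which ranged from 82.5 to 216 CPM (median 136) in females and from 84 to 331 CPM (median 215) in males. Of the 28 males 14 lay above the highest female, and the groups overlapped below that. The male minus female difference was 0.56 ± 0.10 (edgeR, adjusted p = 0.000285). In the immobilized limbs, compared in the same way as an addition made after seeing the data, Psmd8 ranged from 93.9 to 215 CPM (median 142) in females and from 130 to 350 CPM (median 206) in males. The difference was 0.52 ± 0.08 (adjusted p = 2.25e-05), and Psmd8 was again the only member called of 38, against 4.86% of all genes (1.35% higher and 3.51% lower in males). Both limbs are from the same mice, so these results are not independent. Females and males came in separate count tables, so sex and table cannot be told apart in comparisons of levels between the sexes. The cast itself left no called change in Psmd8, with 0.06 ± 0.08 in females and 0.04 ± 0.08 in males. Within the number blocks the control limb difference was 0.43, 0.75 and 0.49, with adjusted p of 0.144, 0.0511 and 1.

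**Figure D5:**
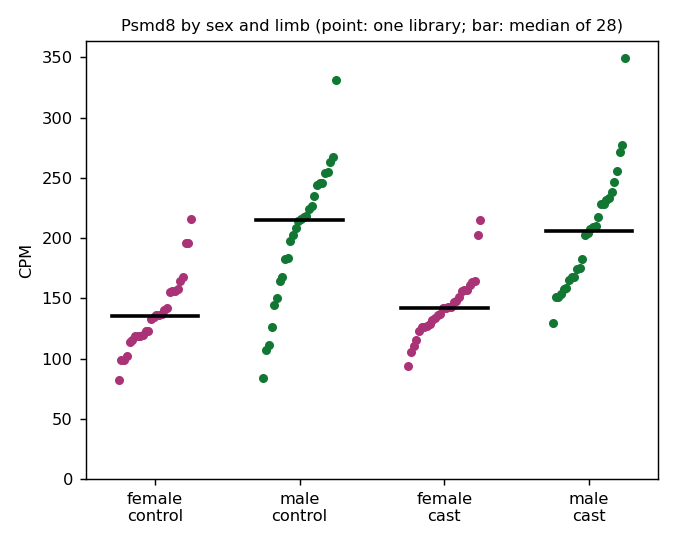
Psmd8 in CPM by sex and limb, 1 point a library, sorted within each group, with the median of 28 as a bar. Medians are 136 (female control), 215 (male control), 142 (female immobilized) and 206 CPM (male immobilized), and 14 male control limbs lie above the highest female control limb.

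Genes that build, extend or feed the proteasome were taken from lists of related genes. Of 8 assembly chaperones, the 3 Psmd chaperones included, 2 rose averaged over the sexes and 0 fell, against 9.58% and 10.4% of all genes. Pomp, the chaperone that matures the core, ranged from 55.1 to 118 CPM (median 86.5) in female control and 60.8 to 207 CPM (median 98.7) in female immobilized limbs, and from 38.8 to 129 CPM (median 77.1) in male control and 55.7 to 198 CPM (median 95.6) in male immobilized limbs. It was higher in 46 of 56 mice, more than for any member, by 0.31 ± 0.05 averaged (adjusted p = 0.000118) and 0.37 ± 0.08 in males (adjusted p = 0.00614). Its estimate with the offset for length and GC was 0.31 as well (adjusted p = 0.000603). Psmg4, a chaperone of alpha ring assembly, rose by 0.30 ± 0.08 (adjusted p = 0.0085), which was not called with the offset (0.15, adjusted p = 0.127). For the related genes named below, changes are given without the offset only.

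Of 14 proteasome-bound factors 1 rose and 0 fell on average, no more than the 9.58% and 10.4% of all genes. It was Shfm1, a small subunit of the lid, which rose by 0.16 ± 0.06 (adjusted p = 0.0376). Txnl1, a thioredoxin-like protein of the cap, fell by 0.23 ± 0.07 in females (adjusted p = 0.0463). Of 22 genes of ubiquitin, its activation and its delivery, 4 rose and 1 fell averaged over the sexes, against 9.58% and 10.4% of all genes. Rps27a and Ubb, which encode ubiquitin, rose by 0.33 ± 0.08 and 0.17 ± 0.05 (adjusted p = 0.00363 and 0.0144). Nsfl1c and Ufd1l, cofactors of the segregase VCP, rose by 0.18 ± 0.05 and 0.12 ± 0.04 (adjusted p = 0.00436 and 0.0125). Ube2d3, a ubiquitin-conjugating enzyme, fell by 0.26 ± 0.08 (adjusted p = 0.0138).

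Among 10 genes of the Nrf1 pathway and NF-Y, 0 rose and 3 fell, against 9.58% and 10.4% of all genes. Nfe2l1 itself had -0.17 ± 0.09 (adjusted p = 0.149), and without the 10 mice -0.17 was called lower (adjusted p = 0.00717). Nfe2l2, the related factor Nrf2, fell by 0.20 ± 0.06 (adjusted p = 0.00762). Mafk and Maff, small Maf partners of both factors, fell by 0.25 ± 0.07 and 0.39 ± 0.12 (adjusted p = 0.0124 and 0.0173). Protein was not measured here.

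The immunoproteasome subunits, left out of the members by the rule, were not called by cast: Psmb8 had 0.68 ± 0.29 (adjusted p = 0.0924), Psmb9 0.45 ± 0.32 (adjusted p = 0.313) and Psmb10 0.23 ± 0.15 (adjusted p = 0.268). Without the 10 mice Psmb8 was called higher at 0.70 (adjusted p = 0.00349). Between the sexes, 5 of 5 genes of the immunoproteasome list (these and the peptide transporters Tap1 and Tap2) were called lower in male than in female immobilized limbs, with a median difference of -1.67, against 3.51% of all genes. In control limbs edgeR called 0 of 5, with 4 lower at an unadjusted p under 0.05, all 5 estimates negative (-1.23 to -0.49) and a median of -1.01. The low Acta1 libraries include 4 female and 1 male immobilized limbs, and the 5 genes have medians there of 36.0 to 90.4 CPM, against 2.12 to 10.3 CPM in the others. The part of these libraries in the sex difference was not tested. The muscle ubiquitin ligases Fbxo32 and Trim63 had -0.18 ± 0.16 and -0.10 ± 0.20 averaged and were not called.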

How the data were processed

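Whole-number read counts per gene symbol, as deposited by the authors in separate tables for females and males, covered 112 libraries of 56 mice. How reads were aligned and assigned to genes, which build was used and how reads shared by near-identical genes were treated is not stated in these sources. Of 32544 symbols, 11886 passed edgeR's filterByExpr. The main model (edgeR 4.0.16, R 4.3.3, quasi-likelihood, TMM) had the animal as a block and a separate cast effect for each sex, with Benjamini-Hochberg adjustment at 0.05. From it came the effects in females and in males, their mean and their difference. Sex was also compared over the 56 control libraries. Changes of single mice are in log2 CPM with a prior count of 2.

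Limbs were paired by the mouse number given in the labels. As a check, a library's deviations from its group mean had a median correlation of 0.36 with those of the mouse's other limb and 0.0013 with limbs of other mice. It was above 0.1 for 45 of 56 mice, the lowest being -0.43. No libraries were duplicates: 0 pairs were identical, and the 1512 pairs within groups differed by a chi-squared per degree of freedom of at least 8.17. Depth of 1716485 to 9995936 counts limits precision for low genes, and the labels mention no molecular identifiers.

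The members and lists were chosen with earlier results of these data known. Members called in females, in males or on average are given in full. Psmd8, Psme2, Psme4 and the members named for the sex difference were picked for detail after their values were seen. Related genes are named when called, at most 12, and 5 whatever their result. In simulated counts, 54% of changes of 1.25-fold and 88% of 1.5-fold were found in the mean of the sexes, and 6 of 11886 genes were called wrongly. The simulation split each gene's spread equally between and within mice, while the measured limbs had a median correlation of 0.07 over all genes. Libraries low in Acta1 were not simulated, so the shares found may be too high for these data. Changes smaller than 1.25-fold, such as all called averaged rises of members, were not simulated. The alternatives changed the scaling (median-of-ratios; total without mitochondrial transcripts), the filter (none; mean CPM of 1 or more), the tool (DESeq2 1.42.0; voom in limma 3.58.1), the block, the mice used, or added an offset for transcript length and GC (splines with 4 degrees of freedom each).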

Additional observations from a re-analysis of the deposited data

How the results depend on the processing

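Rises of at most 0.25 (averaged) and 0.31 (males) on the log2 scale lie near what this number of mice could call, and counts of called members moved with the processing. Where no share of all genes is given above for a fit, its count stands without that background. In females the count of 0 became 4 with DESeq2, 2 with limma voom, 8 without the mice with a low Acta1 library, 1 without males 15 and 16 and 1 with the length and GC offset. Without the animal block (no replicate block) it was 1 in females, 6 in males and 10 on average, where 10 of the 12 main calls were kept. In males the count of 5 became 8 with median-of-ratios size factors, 8 without mitochondrial transcripts in the library size, 0 without the low-count filter, 10 with DESeq2, 8 with limma voom, 10 without the low Acta1 mice, 9 with males fitted alone and 1 with the offset. On average the 12 calls became 4 with the offset, 1 in mice 1 to 20, 0 in mice 21 to 40 and 0 in mice 41 to 59, and 9 to 14 under the 9 other alternatives, no block included. The number blocks gave 0 calls in males and 0 for the sex comparison of control limbs, which hold fewer mice. Psma1 changed sign in mice 21 to 40, at 0.044. Beyond the smaller number of mice, the cause was not tested. The sex difference of the change stayed at 0 members under all 13 alternatives. DESeq2, limma voom, the library size without mitochondrial transcripts and the mice without low Acta1 kept all 12 averaged calls.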

Other observations

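Some members had related levels in both limbs of a mouse. Levels in the control and the immobilized limb, each as the deviation of log2 CPM from the mean of its sex, had a correlation over 56 mice of 0.56 for Psma5, 0.47 for Psmb3, 0.38 for Psmb1 and 0.37 for Psmd9. The median was 0.12 over the 38 members and 0.07 over all genes tested. In the 46 mice without a low Acta1 library the values were 0.61 for Psma5, 0.54 for Psmb3 and 0.49 for Psmb5, with medians of 0.21 and 0.18. Both limbs share the animal, its genotype and its handling, and which of these the values reflect was not tested. Psma5 ranged from 26.3 to 61.6 CPM in female and 24.6 to 60.3 CPM in male control limbs, and its averaged change with the cast was 0.03 ± 0.04. These members were picked after their values were seen.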
